A study of Mus musculus with 16 samples.

Results

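The comparison described here sets MAC-1+ hematopoietic stem cells (HSCs) sorted 4 weeks after transplantation against the MAC-1- HSCs of the same time point. Its members are the 6 RNA-seq libraries that the labels place in these 2 populations, 3 MAC-1+ and 3 MAC-1-, of 16 libraries in the whole series, and the rule used no measured value. The HSCs came from wild-type mice of the B6.SJL strain. Recipients had been lethally irradiated (900 cGy) and had received 8000 LSK cells, which are lineage-negative bone marrow cells positive for cKIT and SCA1 and hold the stem and early progenitor cells. HSCs were sorted from cKIT-enriched marrow as LSK cells without CD48 and with CD150, and were then split by the stain for MAC-1. Both populations share the transplantation, the irradiation of the host, the time point and the gate, and differ in the MAC-1 stain. The labels do not say which libraries shared a mouse or a sort. The p-values below therefore measure the spread between libraries of a population, part of which may be technical. That spread was estimated over all 16 libraries of the series, not over the 6 compared alone.

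MAC-1 is the integrin made of CD11B, encoded by Itgam, and CD18, encoded by Itgb2. It is best known from neutrophils, monocytes and macrophages, where it mediates adhesion and the uptake of complement-coated particles. In adult marrow most HSCs are quiescent, and after transplantation they divide to rebuild the blood system. A dividing cell raises its DNA replication, ribosome production and mitochondrial respiration, and HSCs can also carry low levels of RNA typical of the megakaryocyte, erythroid, myeloid or lymphoid lineage before they differentiate.

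Values are CPM, the counts of a gene relative to the library total, scaled with edgeR's TMM factors, and they are listed as replicates 1, 2 and 3. A gene is called where edgeR's quasi-likelihood test gave a Benjamini-Hochberg adjusted p under 0.1 and the log2 fold change lay past 1 in either direction, always as MAC-1+ over MAC-1-. Of 13661 genes tested, 1.11% were called higher and 1.37% lower in MAC-1+ HSCs, which are 151 and 187 genes. The 3 libraries of one population lay wholly above those of the other, higher in MAC-1+ for 10.2% and lower for 11.5% of the genes tested. The median log2 fold change over all genes was 0.07. The 6 libraries held between 14675234 and 28580658 counts. Replicates of MAC-1+ HSCs resembled each other less than those of MAC-1- HSCs, with correlations of log2 CPM across genes of 0.747 to 0.756 against 0.812 to 0.831. Calls were repeated with each of the 6 libraries left out, and 43 genes (0.315% of those tested) were called higher and 62 (0.454%) lower in every one of these fits. Below, every fit means these 6 fits only, and not the other tests or settings. For named genes that lost the call, the libraries are given beside the value.

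The surface marker used for the sort was low as RNA. Itgam stood at 0, 1.78 and 0 CPM in MAC-1- HSCs and at 8.31, 30.02 and 3.80 CPM in MAC-1+ HSCs (log2 fold change 4.54 ± 2.23 SE, adjusted p = 0.4, not called). Every MAC-1+ library lay above every MAC-1- library. Itgb2 measured 31.4, 18.8 and 30.3 CPM and 8.55, 15.2 and 15.9 CPM (log2 fold change -1.02 ± 1.39 SE, adjusted p = 0.864, not called).

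The markers of the gate were checked next, together with those of other blood cells. Of 10 genes of HSCs and of their gate, 4 were called higher and 0 lower, namely Ly6a, which encodes SCA1, Procr, a receptor of protein C found on HSCs, and the HSC transcription factors Hlf and Mecom. Of the other genes of the gate, Kit measured 133, 215 and 119.5 CPM in MAC-1- and 267, 426 and 234 CPM in MAC-1+ HSCs (log2 fold change 0.99 ± 0.26 SE, adjusted p = 0.0752), just under the fold threshold. Slamf1, which encodes CD150, by which both populations were sorted, stood at 68.6, 73.96 and 71.1 CPM and 7.98, 0.126 and 129 CPM (-0.64, adjusted p = 0.936, not called), and was nearly absent from the second MAC-1+ library. Cd48, which encodes the marker sorted against, was found at 71.7, 89.9 and 133 CPM and 45.4, 0 and 41.3 CPM (log2 fold change -1.76 ± 1.80 SE, adjusted p = 0.783, not called).

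RNA for T cell receptor constants and for Cd3e, Cd4 and Cd8a was at 0 counts in all 6 libraries. The GR1 antibody of the gate binds the products of Ly6g, which had at most 1 count, and of the Ly6c genes. Ly6c2 had 2736 counts in the third MAC-1+ library and at most 4 in each of the others, and Ly6c1 measured 0, 0 and 8.76 CPM in MAC-1- and 17.6, 35.4 and 0.593 CPM in MAC-1+ HSCs, with overlap. The list of lineage markers was carried by Ptprc, which encodes the leukocyte antigen CD45, at 544, 294 and 254 CPM and 1043, 719 and 1016 CPM (1.35, adjusted p = 0.021), and the call was lost without MAC-1- replicate 2 (adjusted p = 0.118) or MAC-1- replicate 3 (adjusted p = 0.107).

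Lists of other cell types were compared by their summed CPM. The 21 neutrophil genes summed to 36.7, 70.2 and 29.8 CPM in MAC-1- HSCs and to 207, 1039 and 7190 CPM in MAC-1+ HSCs, with no overlap and with the third MAC-1+ library far above the other two. Of these genes 8 could be tested, and 3 were called higher and 0 lower. The 21 monocyte and macrophage genes summed to 427, 671 and 483 CPM and to 882, 834 and 1140 CPM, also with no overlap, and of 9 tested 1 was called higher and 0 lower. Most of this sum in MAC-1- HSCs came from Lyz2, which overlapped between the populations. Lyz2 had 5506, 15169 and 7101 counts in MAC-1- and 9181, 7356 and 15023 in MAC-1+ HSCs. The called gene was Ms4a6c (2.20, adjusted p = 0.0791), and the call was lost without MAC-1- replicate 1 (adjusted p = 0.152), MAC-1- replicate 2 (adjusted p = 0.287), MAC-1- replicate 3 (adjusted p = 0.224), MAC-1+ replicate 1 (adjusted p = 0.183) or MAC-1+ replicate 2 (adjusted p = 0.182). Ctss, encoding the lysosomal protease cathepsin S, measured 0, 5.27 and 0.242 CPM and 131, 56.2 and 239 CPM (6.24, adjusted p = 0.185, not called) and Cd68, a lysosomal membrane protein, 0.188, 8.45 and 0.906 CPM and 21.7, 57.5 and 15.6 CPM (3.30, adjusted p = 0.568, not called), both with every MAC-1+ library above every MAC-1- library, while Adgre1 and Csf1r had at most 2 counts. Chil3 and F13a1, with 1413 and 435 counts in the third MAC-1+ library, had at most 2 in each of the others. The 12 dendritic cell genes summed to 80.1, 83.5 and 114 CPM and to 665, 677 and 473 CPM, with no overlap, and of 6 tested 1, Cd74, was called higher and 0 lower. Cd74 made up most of the sum in MAC-1+ HSCs. Siglech, Itgax and Cd209a of this list were at 0 in all 6 libraries. The stroma and endothelium list was lower in MAC-1+ HSCs with no overlap, at 95.2, 110.3 and 129 CPM against 52.6, 19.3 and 45.3 CPM. Most of its sum in MAC-1- HSCs came from Vwf, which the paper counts among genes of megakaryocytic and erythroid commitment. Vwf had 1325, 2672 and 1916 counts in MAC-1- and 1026, 302 and 293 in MAC-1+ HSCs. The lists of B cells and of mast cells and granulocytes other than neutrophils overlapped. The T and NK cell list was lower with no overlap and was carried by Nkg7, a granule protein of cytotoxic cells that early myeloid progenitors also express, at 323, 376 and 642 CPM in MAC-1- and 16, 43.6 and 176 CPM in MAC-1+ HSCs, and the call was lost without MAC-1- replicate 1 (adjusted p = 0.102), MAC-1- replicate 2 (adjusted p = 0.125), MAC-1- replicate 3 (adjusted p = 0.227), MAC-1+ replicate 1 (adjusted p = 0.103) or MAC-1+ replicate 2 (adjusted p = 0.256). The part of these other cell types in the results below was not tested.

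**Figure D1:**
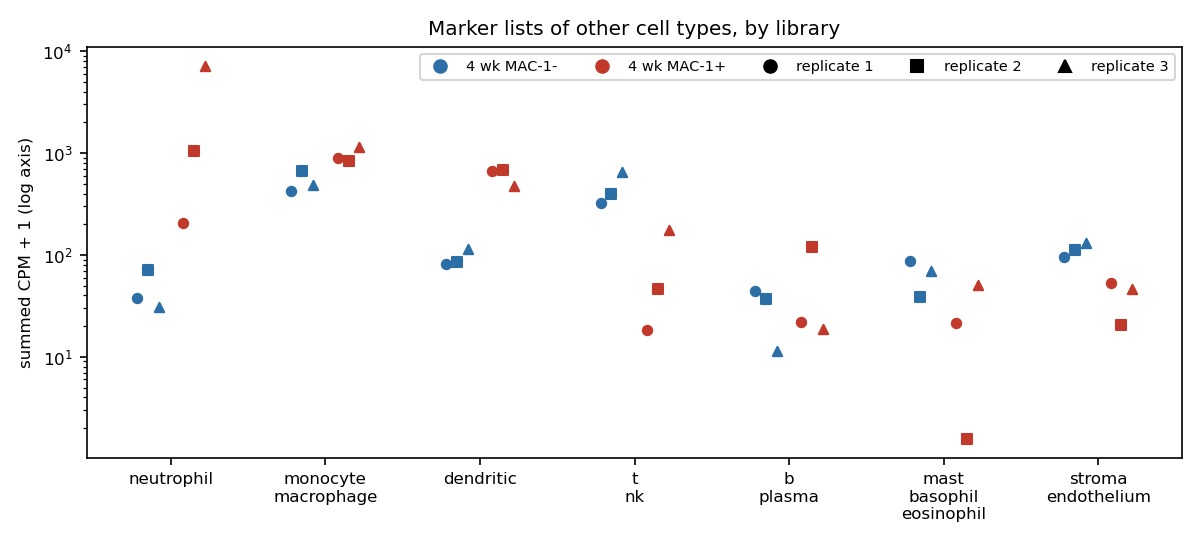
Summed CPM + 1, on a log axis, of 7 marker lists of other cell types in the 3 MAC-1- libraries (blue) and the 3 MAC-1+ libraries (red) at 4 weeks, each point being 1 library and each shape a replicate number. The neutrophil list ran from 206.9 to 7190 CPM in MAC-1+ and from 29.8 to 70.2 CPM in MAC-1- HSCs.

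S100a8 and S100a9, the calcium-binding proteins that together form calprotectin of neutrophils and monocytes, rose most among the genes called in every fit. S100a8 measured 9.73, 48.9 and 4.11 CPM in MAC-1- and 94.3, 465 and 3911 CPM in MAC-1+ HSCs (log2 fold change 6.15 ± 1.25 SE, adjusted p = 0.0185). The populations did not overlap, but the third MAC-1+ library held most of the signal. S100a9 followed the same order, with 10.04, 17.9 and 8.82 CPM against 40.3, 207 and 1584 CPM (log2 fold change 5.64 ± 1.09 SE, adjusted p = 0.0144). Both calls were kept without that library and without each of the others, but both were lost by limma-voom with sample weights (adjusted p = 0.315 and 0.217) and by edgeR on the 6 libraries alone (adjusted p = 0.154 and 0.126). Wfdc21, a further gene of the neutrophil list, had 0 counts in the 3 MAC-1- libraries and 13.8, 41.6 and 105 CPM in the MAC-1+ libraries, which is at least 331-fold higher against a floor of 3 counts per library, and the call was lost without any 1 of the 6 libraries (adjusted p from 0.127 to 0.279). The part of neutrophil RNA in these 3 genes was not tested.

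Wfdc17, which encodes a secreted protein with a whey acidic protein domain, differed from the S100 genes in its spread. It measured 7.53, 3.53 and 23.6 CPM in MAC-1- and 496, 554 and 586 CPM in MAC-1+ HSCs (log2 fold change 5.56 ± 0.66 SE, adjusted p = 5.76e-04). Its 3 MAC-1+ values lay close to each other. In the same libraries the neutrophil list ran from 206.9 to 7190 CPM and the monocyte and macrophage list from 834 to 1140 CPM. The part of RNA of other cell types in Wfdc17 was not tested. Ccl4, a chemokine that attracts monocytes and lymphocytes, stood at 34.3, 32.1 and 28.6 CPM and 203, 395 and 263 CPM (log2 fold change 3.18 ± 0.36 SE, adjusted p = 3.95e-04). Spi1, which encodes PU.1, a transcription factor that directs myeloid and lymphoid fate, measured 1.51, 2.16 and 7.61 CPM and 56.2, 54.7 and 46.5 CPM (log2 fold change 3.80 ± 0.65 SE, adjusted p = 0.00676). For Ccl4 and Spi1 as well, every MAC-1+ library was above every MAC-1- library, and the calls were kept without any 1 library.

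Further genes with a tight separation serve metabolism, membranes and signalling. Mgst1, a microsomal glutathione transferase that protects membranes from oxidation, rose from 33.6, 37.6 and 44.2 CPM to 247, 309.7 and 308 CPM (log2 fold change 2.91 ± 0.33 SE, adjusted p = 3.95e-04), and Gstm1, a cytosolic glutathione transferase, from 88.9, 98.6 and 87.6 CPM to 335, 305 and 352 CPM (log2 fold change 1.85 ± 0.28 SE, adjusted p = 0.00333). Within the antioxidant list of 34 tested genes, 2 were called higher and 2 lower, with a median of -0.15. The pair that fell were Gpx4, which reduces lipid peroxides (-1.15, adjusted p = 0.00397), and Prdx1, a peroxiredoxin (-1.15, adjusted p = 0.003). Without MAC-1+ replicate 3 the Prdx1 value no longer passed the fold threshold. Pqlc3 had the smallest adjusted p among the genes named by rank that rose, with 21.2, 18.4 and 17.8 CPM against 225, 222 and 186 CPM (log2 fold change 3.46 ± 0.36 SE, adjusted p = 1.61e-04). Myof, a membrane repair protein of the ferlin family, measured 1.44, 7.81 and 13.04 CPM and 102, 106 and 55.9 CPM (log2 fold change 3.56 ± 0.71 SE, adjusted p = 0.0166). Stxbp4, a syntaxin-binding protein, stood at 38.7, 19.98 and 62.1 and 483, 592 and 261 CPM (log2 fold change 3.47 ± 0.58 SE, adjusted p = 0.00576), and Ubl3, a membrane-anchored ubiquitin-like protein, at 28.6, 24.1 and 33.9 and 243, 121 and 137 CPM (log2 fold change 2.53 ± 0.35 SE, adjusted p = 0.00187).

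**Figure D2:**
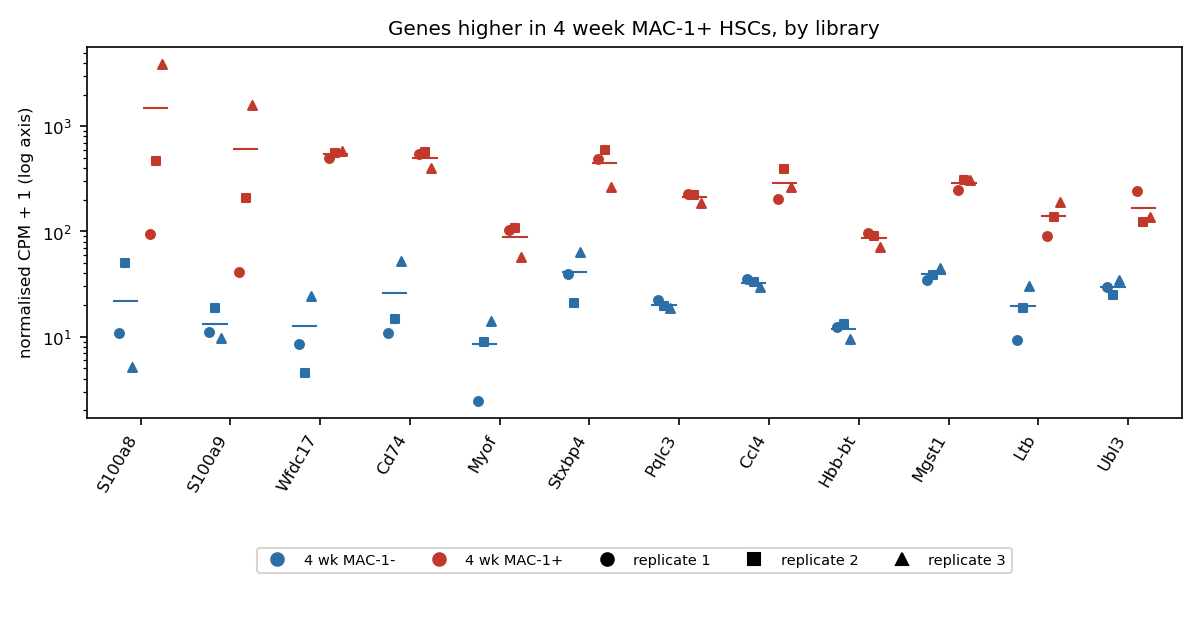
Normalised CPM + 1, on a log axis, of 12 genes in MAC-1- (blue) and MAC-1+ (red) libraries at 4 weeks, with a bar at the mean of the 3 libraries and a shape for each replicate number. These 12 had the largest rise among genes named by rank, which were called in every fit leaving out 1 library and not named by the study itself. The populations do not overlap for any of the 12 genes, and the MAC-1+ values of S100a8 differ most between replicates among the 12.

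Interferon-stimulated genes were called in 1 direction, higher in MAC-1+ HSCs. Of 59 tested, 10 were called higher and 0 lower, 52 had a positive log2 fold change, and the median was 1.17 against 0.07 over all genes. Only 2 of the 10 calls, those of Gbp2 and Ly6a, were kept in every fit that left out a library. Gbp2, a guanylate-binding protein of the defence against intracellular pathogens, measured 17.1, 47.2 and 48.7 CPM in MAC-1- and 335, 138 and 154 CPM in MAC-1+ HSCs (log2 fold change 2.47 ± 0.50 SE, adjusted p = 0.0186). All 9 tested members of the guanylate-binding protein family had positive values, with a median of 2.75, and 4 were called. Gbp8 rose from 0, 4.25 and 15.8 to 317, 219 and 259.8 CPM (5.31, adjusted p = 0.0215), and the call was lost without MAC-1- replicate 2 (adjusted p = 0.12). Iigp1, an interferon-induced GTPase, stood at 86.7, 59.6 and 96.8 and 339.7, 323 and 521 CPM (2.28, adjusted p = 0.0327), and the call was lost without MAC-1- replicate 1 (adjusted p = 0.113), MAC-1- replicate 2 (adjusted p = 0.161) or MAC-1+ replicate 3 (adjusted p = 0.119). The next 2 genes, Irf2 and Ifitm1, were not among the 59 listed. Irf2, a transcription factor that limits interferon signalling in HSCs, measured 36.7, 34.1 and 34.7 CPM and 117, 156 and 108 CPM (log2 fold change 1.85 ± 0.36 SE, adjusted p = 0.0133), and the call was kept in every fit. Ifitm1, an interferon-induced membrane protein, was abundant in both populations, with 689, 983 and 707 and 3438, 2975 and 2328 CPM (log2 fold change 1.88 ± 0.18 SE, adjusted p = 1.61e-04). It was the member called among 5 tested of its family, whose median was -0.29.

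A pair of genes of class II antigen presentation was called higher. Cd74, the invariant chain that guides class II molecules to the endosome, measured 9.73, 13.6 and 51.6 CPM in MAC-1- and 538, 566 and 399 CPM in MAC-1+ HSCs (log2 fold change 4.33 ± 0.61 SE, adjusted p = 0.00208). H2-Aa, the alpha chain of a class II molecule, stood at 89.1, 48.8 and 85.3 and 265, 385 and 163 CPM (1.86, adjusted p = 0.0351), and the call was lost without MAC-1- replicate 2 (adjusted p = 0.169) or MAC-1+ replicate 2 (adjusted p = 0.142). H2-Ab1, the beta chain, had 846, 890 and 543 counts in MAC-1- and 2173, 1049 and 1151 in MAC-1+ HSCs. It was not called, and in CPM the populations overlapped. Of 31 tested genes of antigen presentation 2 were called higher and 0 lower, and 9 were higher with no overlap, with a median of 0.49.

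The Gimap family, GTPases of lymphocyte survival encoded in a cluster on chromosome 6, had 3 of 8 tested members called higher and 0 lower, with a median of 2.19. Gimap6 measured 178, 136 and 145 CPM in MAC-1- and 835, 686 and 615 CPM in MAC-1+ HSCs (log2 fold change 2.22 ± 0.31 SE, adjusted p = 0.00186). Gimap5 stood at 35.7, 27.9 and 25.9 and 98.2, 125 and 121 CPM (log2 fold change 1.94 ± 0.36 SE, adjusted p = 0.0115), and Gimap8 at 22.8, 42.8 and 7.85 and 157, 201 and 254 CPM (3.06, adjusted p = 0.0267). The calls of Gimap5 and Gimap6 were kept in every fit, and for Gimap8 the call was lost without MAC-1- replicate 1 (adjusted p = 0.117). Of 6 tested members of the Ms4a family of membrane proteins, 3 were called higher. Ms4a4b had 0 counts in MAC-1- HSCs and 42.5, 27.6 and 15.3 CPM in MAC-1+ HSCs, which is at least 177-fold higher against a floor of 3 counts per library. The Ms4a4b call was lost without any 1 of the 6 libraries (adjusted p from 0.137 to 0.228).

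The lymphoid priming list had 2 of 32 tested genes called higher and 2 lower, with a median of 0.60. Ltb, the lymphotoxin beta chain, rose from 8.29, 17.9 and 29.6 to 90.5, 135 and 190.1 CPM (log2 fold change 2.90 ± 0.52 SE, adjusted p = 0.00997). Emb, the adhesion protein embigin, rose from 80.7, 57.2 and 25.2 to 255, 316 and 293 CPM (log2 fold change 2.40 ± 0.39 SE, adjusted p = 0.00472). Both calls were kept in every fit. Il12a, a cytokine subunit, fell from 137, 170.1 and 179 to 46.9, 10.1 and 21.4 CPM (-2.63, adjusted p = 0.0393), and the call was lost without MAC-1- replicate 2 (adjusted p = 0.113), MAC-1- replicate 3 (adjusted p = 0.113), MAC-1+ replicate 2 (adjusted p = 0.147) or MAC-1+ replicate 3 (adjusted p = 0.163).

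The list of HSC transcription factors leaves out factors that the study named itself, such as Hlf and Mecom, whose calls were kept in every fit. Of 36 others tested, 4 were called higher and 1 lower, with a median of 0.75, and none of the 5 calls was kept in every fit. Hoxa9, a homeobox factor of stem cell expansion, measured 144, 76.4 and 61.95 CPM in MAC-1- and 236, 319.7 and 206 CPM in MAC-1+ HSCs (1.43, adjusted p = 0.0418), and the call was lost without MAC-1- replicate 2 (adjusted p = 0.191), MAC-1- replicate 3 (adjusted p = 0.188) or MAC-1+ replicate 2 (adjusted p = 0.145). Of 27 tested genes of quiescence 3 were called higher and 0 lower, with a median of 0.46, and 0 of the 3 calls were kept in every fit. Txnip, an inhibitor of thioredoxin and glucose uptake, stood at 67.4, 121 and 56.9 and 207, 254 and 276 CPM (1.58, adjusted p = 0.0231), and the call was lost without MAC-1- replicate 1 (adjusted p = 0.113) or MAC-1- replicate 3 (adjusted p = 0.117).

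Genes of platelets and their precursors were among the most strongly reduced in MAC-1+ HSCs. Of 45 tested genes of the megakaryocyte and platelet list, 8 were called lower and 0 higher, 24 were lower with no overlap, and the median was -1.20. Gp1bb, a chain of the platelet receptor for von Willebrand factor, measured 121, 98.2 and 139.6 CPM in MAC-1- HSCs and had 0 counts in all 3 MAC-1+ libraries (adjusted p = 0.00661). Against a floor of 3 counts per library, which covers counting error only, Gp1bb was at least 799-fold lower. Plek, encoding pleckstrin, the main protein kinase C substrate of platelets, fell from 697, 565 and 436 to 40.4, 3.45 and 21.6 CPM (log2 fold change -4.70 ± 0.72 SE, adjusted p = 0.00348). Rap1b, a small GTPase that activates platelet integrins, fell from 4091, 2546 and 2758 to 817, 558 and 585 CPM (log2 fold change -2.26 ± 0.24 SE, adjusted p = 2.01e-04). These 3 calls were kept in every fit, and over the whole list 3 of the 8 calls were. Lat, an adaptor of receptor signalling, stood at 77.3, 78.1 and 78.6 and 12.2, 19.8 and 22.5 CPM (-2.10, adjusted p = 0.0292), and the call was lost without MAC-1+ replicate 1 (adjusted p = 0.1). Gata1, the factor that directs megakaryocyte and erythroid fate, measured 26.2, 50.8 and 41.7 CPM and 0 counts in the MAC-1+ libraries, at least 264-fold lower against the same floor (adjusted p = 0.0468). The Gata1 call was lost without MAC-1- replicate 2 (adjusted p = 0.105), MAC-1+ replicate 1 (adjusted p = 0.122), MAC-1+ replicate 2 (adjusted p = 0.145) or MAC-1+ replicate 3 (adjusted p = 0.153). In bulk libraries, fewer cells with platelet RNA and less of it per cell cannot be told apart.

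**Figure D3:**
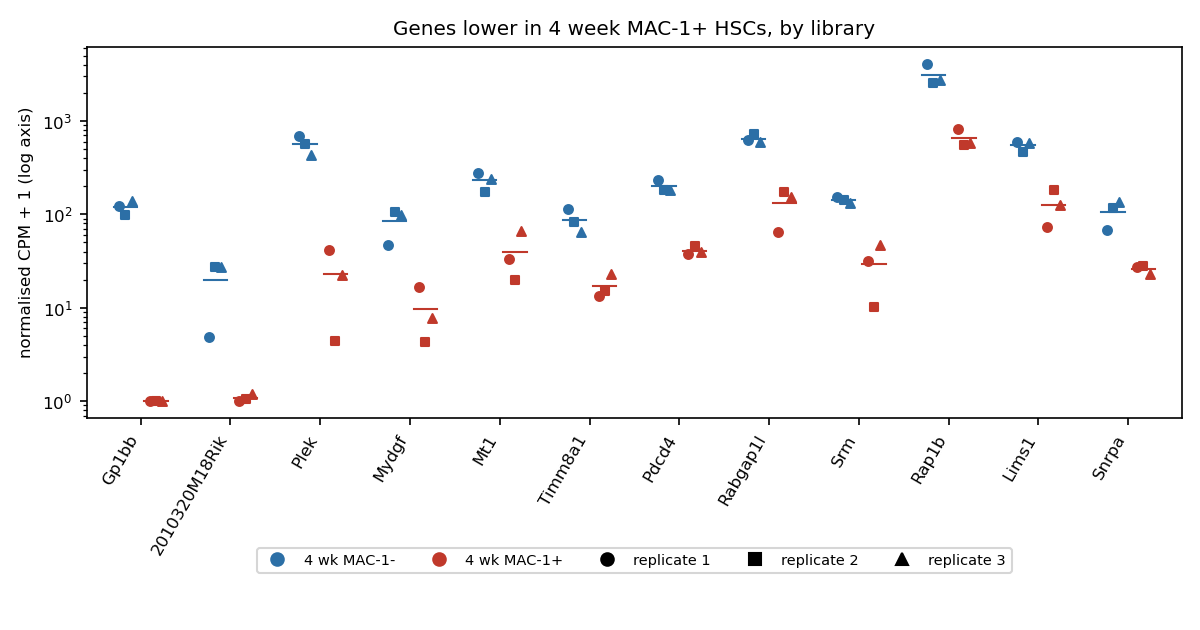
Normalised CPM + 1, on a log axis, of 12 genes in MAC-1- (blue) and MAC-1+ (red) libraries at 4 weeks, with a bar at the mean of the 3 libraries and a shape for each replicate number. These 12 had the largest fall among genes named by rank, which were called in every fit leaving out 1 library and not named by the study itself. Gp1bb lies at 0 CPM in the 3 MAC-1+ libraries, and Rap1b lies at 817 CPM or less in the MAC-1+ libraries.

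The erythroid list had 1 of 32 tested genes called higher and 2 lower, with a median of -0.09. Hbb-bt, an adult beta globin, rose from 11.5, 12.1 and 8.51 to 95.6, 90.1 and 69.6 CPM (log2 fold change 2.99 ± 0.48 SE, adjusted p = 0.00413). It shares most of its sequence with Hbb-bs, and reads could be split between them. Mt1, a metallothionein that binds zinc and copper, fell from 276, 174 and 239.7 to 32.6, 18.9 and 64.8 CPM (log2 fold change -2.57 ± 0.52 SE, adjusted p = 0.0179).

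Genes of the cell division cycle were called in 1 direction, lower in MAC-1+ HSCs. Of 26 tested genes of cyclin-dependent kinases, cyclins and E2F factors, 4 were called lower and 0 higher, with a median of -0.75. Cdk6, the kinase that sets the exit of HSCs from quiescence, fell from 288, 288 and 228 to 61.4, 93.8 and 44.5 CPM (log2 fold change -2.01 ± 0.33 SE, adjusted p = 0.00563). Of 42 tested genes of S phase, 4 were called lower and 0 higher, 24 were lower with no overlap, and the median was -0.81. Tyms, which makes thymidylate for DNA synthesis, fell from 319, 308 and 231 to 88.4, 74.5 and 67.4 CPM (log2 fold change -1.90 ± 0.39 SE, adjusted p = 0.0186). Tipin, which stabilises the replication fork, fell from 974, 871 and 879.7 to 339, 274 and 220.4 CPM (log2 fold change -1.71 ± 0.27 SE, adjusted p = 0.00397). The calls of Cdk6, Tyms and Tipin were kept in every fit. In all, 1 of the 4 calls of the kinase, cyclin and E2F list and 2 of the 4 S phase calls were kept. Genes of G2 and mitosis had a median of -0.56, with 1 of 53 called lower and 0 higher, and that call was not kept in every fit. The 51 tested clustered histone genes had a median of -0.47 with 0 called in either direction by edgeR. Of these, 2 were at an unadjusted p below 0.05, and 3 were called by DESeq2 and 0 by limma-voom.

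Genes of ribosome production were also called lower. Of 51 tested genes of MYC and ribosome biogenesis, 7 were called lower and 0 higher, with a median of -0.73, and 4 of the 7 calls were kept in every fit. Srm, the spermidine synthase, fell from 154, 142 and 129.9 to 30.5, 9.17 and 46.4 CPM (log2 fold change -2.31 ± 0.47 SE, adjusted p = 0.0185). Nhp2, a protein of the box H/ACA particles that modify ribosomal RNA, fell from 433, 517 and 665 to 211, 111 and 208 CPM (log2 fold change -1.61 ± 0.28 SE, adjusted p = 0.0088), and Nop10, a further protein of these particles, from 2831, 2921 and 2248 to 1468, 1130 and 877 CPM (log2 fold change -1.20 ± 0.19 SE, adjusted p = 0.00376). Eif5a, a translation factor activated by spermidine, fell from 894, 887 and 1400 to 352, 399 and 412 CPM (log2 fold change -1.45 ± 0.27 SE, adjusted p = 0.0122). Of 83 cytosolic ribosomal protein genes 1 was called lower and 0 higher, and their median was -0.24.

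Nuclear genes of the mitochondrion were called lower, and no gene of the mitochondrial genome was called. Of 47 tested nuclear genes of respiratory complexes II to V, 11 were called lower and 0 higher, 32 were lower with no overlap, and the median was -0.83. Cox8a, a subunit of cytochrome c oxidase, fell from 1297, 1380 and 1174 to 570.1, 532 and 523 CPM (log2 fold change -1.24 ± 0.12 SE, adjusted p = 1.61e-04). Uqcc2, an assembly factor of complex III, fell from 491, 598 and 439 to 173, 183 and 164 CPM (log2 fold change -1.55 ± 0.18 SE, adjusted p = 5.60e-04). Of 36 genes of complex I, 4 were called lower and 0 higher, with a median of -0.70. Of 76 mitochondrial ribosomal protein genes, 5 were called lower and 0 higher, with a median of -0.69. In every fit that left out a library, 0 of the 4 complex I calls and 1 of the 5 mitochondrial ribosomal protein calls were kept. For complexes II to V, 7 of the 11 calls were kept. The 12 tested protein genes of the mitochondrial genome had a median of 0.01 and 0 calls by edgeR, DESeq2 or limma-voom, with 3 at an unadjusted p below 0.05. With 1 library left out, their median ran from -0.27 (without MAC-1+ replicate 1) to 0.23 (without MAC-1- replicate 1). mt-Cytb, one of these 12 genes, measured 37336, 30278 and 25840 CPM in MAC-1- and 33066, 19305 and 17960 CPM in MAC-1+ HSCs, with overlap. Slc25a5, which exchanges ADP for ATP across the inner membrane, fell from 2737, 2386 and 2536 to 1141, 784 and 1075 CPM (log2 fold change -1.35 ± 0.14 SE, adjusted p = 1.61e-04). Ldha, a lactate dehydrogenase subunit, fell from 844, 619.7 and 725 to 270.3, 253 and 255 CPM (log2 fold change -1.49 ± 0.26 SE, adjusted p = 0.00721). Ldhb, another subunit of that enzyme, was called higher, and its call was not kept in every fit. Of 35 tested genes of hypoxia and glycolysis, 1 was called higher and 1 lower, with a median of 0.15.

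Genes of protein folding and turnover gave fewer calls. Of 38 proteasome subunit genes 2 were called lower and 0 higher, with a median of -0.65, and the 8 tested genes of the chaperonin TRiC were each lower with no overlap, and 2 were called. Psmb3, a proteasome core subunit, fell from 706, 748 and 752 to 297, 282 and 391 CPM (log2 fold change -1.18 ± 0.23 SE, adjusted p = 0.0151), and Tcp1, a subunit of TRiC, from 260.4, 257 and 301 to 112, 129 and 131 CPM (log2 fold change -1.14 ± 0.23 SE, adjusted p = 0.0185).

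**Figure D4:**
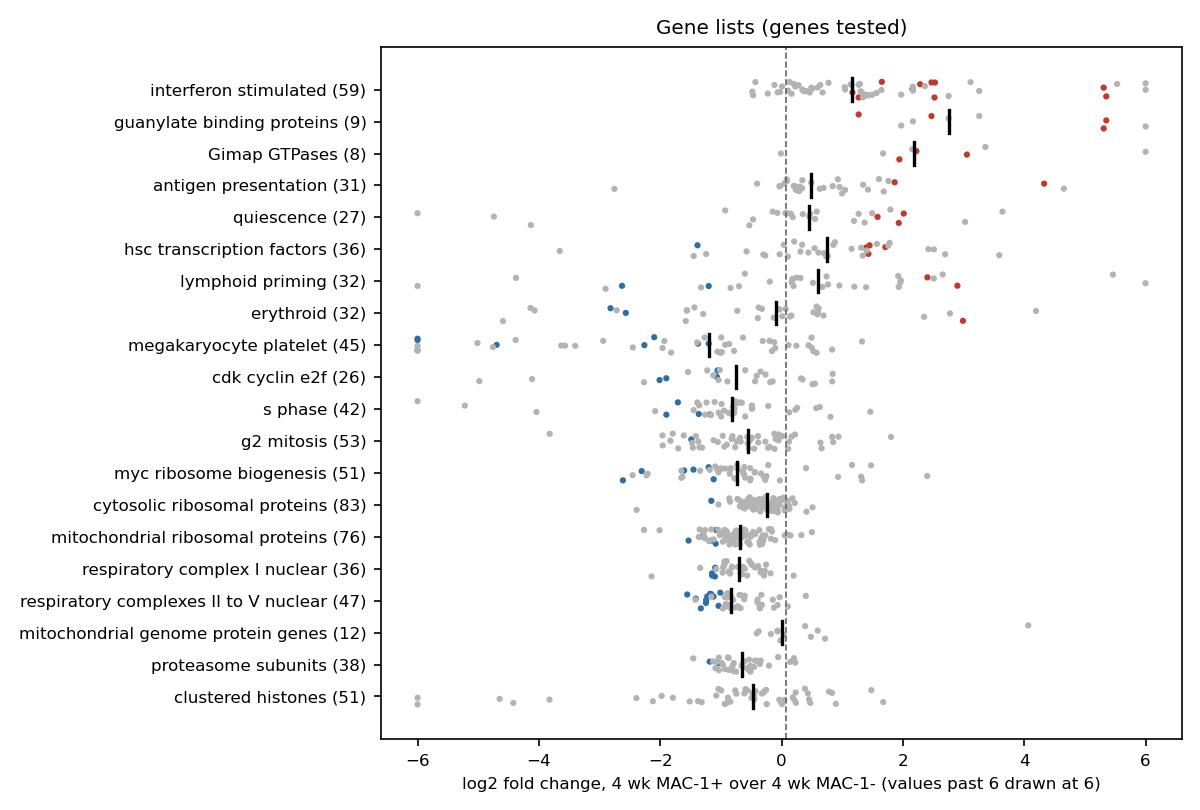
Log2 fold change (MAC-1+ over MAC-1- at 4 weeks) of the tested members of 20 gene lists, with the number tested in parentheses, called genes in red (higher) or blue (lower), other genes in gray, a black bar at each list's median and a dashed line at the median of all genes, 0.07. The list medians run from 2.75 for guanylate-binding proteins to -1.20 for the megakaryocyte and platelet list.

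The length of genes moved with the comparison. In 5 equal groups of genes by merged exon length, from shortest to longest, the median log2 fold change was -0.26, -0.07, 0.10, 0.20 and 0.35. Genes called lower had a median exon length of 2618 bases and genes called higher 5109, against 3976 over all genes. With an offset for exon length in the model, 101 genes were called higher and 109 lower. Medians with that offset were -1.34 for the megakaryocyte and platelet list, -0.93 for S phase, -0.58 for complexes II to V, -0.02 for cytosolic ribosomal proteins and 1.18 for interferon-stimulated genes. With it Cox8a, Nop10 and Gpx4 no longer passed the fold threshold, with log2 fold changes of -0.93, -0.87 and -0.86, and Ptprc, Nkg7, Neat1, Ms4a4b and Wfdc21 were no longer called either. On the 6 libraries alone, Spi1, Myof, Gbp2, Gbp8, Gimap8, H2-Aa, Hoxa9, Txnip, Ptprc and Gimap1os among the genes described as higher and Srm, Lat, Il12a, Nkg7 and 2010320M18Rik among those described as lower lost the call, as did S100a8 and S100a9. Without a filter on low counts S100a8, Gbp8, Tcp1, Lat and Nkg7 lost it.

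Few noncoding genes were called. Of 2105 tested noncoding genes, which include pseudogenes, 0.238% were called higher and 0.143% lower, which are 5 and 3 genes, against 1.26% and 1.59% of 11556 other genes. The difference between these shares was not tested. RP23-329A21.3, a long intergenic noncoding RNA (ENSMUSG00000107061, GRCm38 chromosome 5, 75833035 to 75835645), rose from 149, 200.5 and 120.3 to 336, 499 and 422 CPM (log2 fold change 1.42 ± 0.21 SE, adjusted p = 0.00335). 2010320M18Rik, also a long intergenic noncoding RNA (ENSMUSG00000100691, GRCm38 chromosome 8, 70776815 to 70777823), measured 3.89, 26.1 and 26.02 CPM in MAC-1- and 0, 0.0628 and 0.198 CPM in MAC-1+ HSCs (adjusted p = 0.00606). These 2 calls were kept in every fit. Neat1, the RNA scaffold of nuclear paraspeckles, rose from 57.7, 78.3 and 53.5 to 179.7, 222 and 156 CPM (1.56, adjusted p = 0.0682), and the call was lost without any 1 of the 6 libraries (adjusted p from 0.114 to 0.256). Gimap1os, transcribed within the Gimap cluster (GRCm38 chromosome 6, 48738346 to 48741444), rose from 15.8, 7.09 and 5.80 to 75.8, 54.5 and 67.8 CPM (2.79, adjusted p = 0.0403), and the call was lost without MAC-1- replicate 2 (adjusted p = 0.182) or MAC-1- replicate 3 (adjusted p = 0.177). Use of strand in the counting is not given in the sources used here, so that reads from opposite strands may be mixed there. edgeR called 0 of 12 host genes of small nucleolar RNAs, 0 of 36 small nucleolar RNA genes and 0 of 16 microRNA genes tested, with 4, 4 and 2 at an unadjusted p below 0.05, 3, 4 and 1 called by DESeq2, and 0, 0 and 1 by limma-voom.

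Promoter sequences from RefSeq (GRCm38.p6), matched by symbol for 9282 of the tested genes, 114 of those called higher and 157 of those called lower, were searched for letters of binding motifs on both strands of the 250 bases before the start. The interferon response letters, GAAA followed by 2 bases of any kind and GAAA again, were found in 7.89% of promoters of genes called higher, 2.55% of those called lower and 2.74% of all matched. E-box letters CACGTG stood in 3.51%, 15.3% and 8.55%, and the E2F letters TTTGGCGC or TTTCGCGC in 0%, 5.73% and 1.35%. GATA letters, which are GATAA or GATAG after an A or a T, stood in 18.4%, 21.02% and 16.5%, and the PU.1 letters GAGGAAGT in 3.51%, 3.82% and 2.50%. These shares are descriptions without a test. The promoters below belong to genes described above and are shown for the motif in capitals, an interferon response motif for Gbp2 (chr3:142620413-142620662, plus strand) and Irf2 (chr8:46739495-46739744, plus strand), a GATA motif for Gp1bb (chr16:18622404-18622653, minus strand) and a PU.1 motif for S100a8 (chr3:90668821-90669070, plus strand), each written 5′ to 3′ on the strand of the gene.
Gbp2: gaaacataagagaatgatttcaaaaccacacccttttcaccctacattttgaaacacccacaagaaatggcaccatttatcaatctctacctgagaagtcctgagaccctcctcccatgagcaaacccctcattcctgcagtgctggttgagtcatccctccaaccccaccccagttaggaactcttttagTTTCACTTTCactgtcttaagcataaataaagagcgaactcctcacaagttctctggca
Irf2: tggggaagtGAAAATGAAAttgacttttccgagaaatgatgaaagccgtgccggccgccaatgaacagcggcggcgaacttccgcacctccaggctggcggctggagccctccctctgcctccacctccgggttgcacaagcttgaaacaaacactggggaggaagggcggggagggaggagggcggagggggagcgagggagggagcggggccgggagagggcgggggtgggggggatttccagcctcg
Gp1bb: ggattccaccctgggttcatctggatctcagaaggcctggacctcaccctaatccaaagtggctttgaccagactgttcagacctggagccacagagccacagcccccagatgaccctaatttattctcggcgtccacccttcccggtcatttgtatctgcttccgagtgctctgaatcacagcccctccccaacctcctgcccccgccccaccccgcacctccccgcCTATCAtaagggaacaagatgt
S100a8: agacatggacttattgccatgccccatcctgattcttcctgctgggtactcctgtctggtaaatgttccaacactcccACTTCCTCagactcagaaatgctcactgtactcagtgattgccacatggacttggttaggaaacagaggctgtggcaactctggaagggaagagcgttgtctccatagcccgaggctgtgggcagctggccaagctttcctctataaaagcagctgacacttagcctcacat

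Other families gave no call by edgeR at the adjusted threshold, and for each the number at an unadjusted p below 0.05 and the number called by DESeq2 and by limma-voom follow. Of 39 receptors of cytokines and growth factors (median 0.96) these were 3, 4 and 0. Of 33 genes of the TGF-beta pathway (median 0.98) they were 5, 4 and 3. The 24 genes of the Notch pathway (median 0.25) gave 0, 0 and 0. The 28 JAK, STAT and SOCS genes (median 0.74) gave 4, 3 and 1. The 45 genes of autophagy and the lysosome (median 0.41) gave 5, 5 and 2. The 37 regulators of DNA methylation and Polycomb (median 0.16) gave 4, 3 and 1. The 30 targets of p53 (median 0.14) gave 1, 1 and 0.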

How the data were processed

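RNA of sorted HSCs was copied whole with SMART-Seq, without molecular identifiers, and sequenced. The authors deposited 1 table of raw counts per gene and library, aligned with STAR inside the nf-core pipeline. Which program counted the reads, and on which build and annotation, is not given in the sources used here, and DESeq2 is named in the submitters' processing notes. SMART-Seq gives long transcripts more reads, and PCR copies count as reads, so that a floor of 3 counts per library covers counting error only.

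Of 46078 genes, 45229 were matched by Ensembl identifier to GENCODE (GRCm38), which gave gene types, exon lengths and coordinates. In R 4.3.3, edgeR 4.0.16 was applied with TMM, its default filter and the robust quasi-likelihood test to all 16 libraries, with a mean for each of 5 populations. Adjusted p are Benjamini-Hochberg values. DESeq2 1.42.0, limma 3.58.1 (voom) and the other alternatives are given in the closing section. The fits were tested on simulated data. Plots used matplotlib 3.10.9.

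The comparison, the 31 gene lists, the 10 lists of checks and the 52 families were chosen with earlier results of these data known. The 31 lists leave out genes the paper named, but for 1 gene each in the erythroid and interferon lists. Genes named by rank were called in every fit leaving out a library, did not overlap, had a mean of at least 50 normalized counts and were not named by the paper, 12 per direction. Of noncoding genes, up to 8 per direction with a mean of at least 20 were eligible. From each list, up to 4 called members, those kept in every fit first, were eligible, or the 2 most abundant where none was called.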

Additional observations from a re-analysis of the deposited data

How the results depend on the processing

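The counts of called genes depended on the test. Against 151 genes higher and 187 lower, DESeq2 called 755 and 570, limma-voom with sample weights 367 and 330, and edgeR on the 6 libraries alone 66 and 79. At an adjusted p below 0.05, 80 genes were higher and 127 lower. With an offset for exon length, chosen after seeing the data, 109 were lower. Leaving out 1 of the 6 libraries gave 74 to 116 genes higher and 107 to 206 lower. Of noncoding genes, 5 higher and 3 lower, DESeq2 called 90 and 112 and limma-voom 21 and 23. On the 6 libraries alone 0 were lower by edgeR, with 35 at an unadjusted p below 0.05, and at an adjusted p below 0.05, 2 were higher and 1 lower. A covariate for how many genes a library detected left 1 noncoding gene higher and the offset 3. Leaving out a library gave 2 to 3 higher and 1 to 4 lower. Genes higher made up 44.7% of the calls, and 57.0% by DESeq2. The cause of these differences was not tested.

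With the replicate number as a block, 95 genes were called higher, 156 lower, and 1 noncoding gene higher and 2 lower. The labels do not say that a number marks a shared mouse or day, and deviations of libraries with the same number correlated at 0.0331, 0.0242 and 0.0177. Each library correlated best with its own number, which is a hint from the data only.

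Over the alternatives for named genes, 0 changed direction with a call, 481 values lost a call and 23 gained one. Without the SS MAC-1- replicate 3, chosen after seeing the data, 157 genes were higher and 192 lower.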

Other observations

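Across the genes that separate the MAC-1+ and MAC-1- extremes, the 4 week MAC-1low HSCs, which were not part of the comparison but share its model, had a mean CPM between both populations for 147 of the 151 genes called higher and for 182 of the 187 called lower. These counts are a description, since the genes were chosen for a difference between the outer populations.

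Genes of the actin cytoskeleton, chosen after their values were seen, were among those called lower in every fit that left out a library. Pfn1, encoding profilin, had a log2 fold change of -1.50 ± 0.24 SE (edgeR adjusted p = 0.00453), and Cfl1, encoding cofilin, of -1.21 ± 0.21 SE (adjusted p = 0.00806). Lgals9, encoding galectin 9, fell by 2.02 ± 0.36 SE on the log2 scale (adjusted p = 0.00843), and Lgals1, encoding galectin 1, rose by 1.76 ± 0.34 SE (adjusted p = 0.0133).

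The primary granule genes Elane and Mpo, which mark early neutrophil progenitors, had 4978 and 4038 counts in the third MAC-1+ library, 0 in the other MAC-1+ libraries and at most 24 in the MAC-1- libraries, and neither was called. The list of primary granule genes had 1 of 19 tested members called higher and 2 lower, and 0 of these calls were kept in every fit that left out a library. Prtn3, encoding a further primary granule protein, was called higher, and its call was not kept in every such fit.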
